A study of Homo sapiens with 6 samples.

Results

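The genes described here are 32 androgen-induced genes of prostate cells that lie outside the kallikrein cluster and are not lineage transcription factors. They were given as a list of symbols, all 32 were found by symbol among the 23354 genes of the read-count table, and all 32 passed the low-count filter that left 13466 genes for testing. RNA was sequenced from LNCaP, an established human prostate cancer cell line that depends on androgen, in 2 groups of 3 libraries. The DHT+WBM group received dihydrotestosterone (DHT), a potent natural androgen, at 1 nM together with an extract of white button mushroom (WBM, the food mushroom Agaricus bisporus) at 3 µL/mL. The DHT group received DHT at the same dose without the extract, and both were kept for 48 h. The labels state neither a vehicle for the DHT group nor whether the triplicates were separate cultures, so the p-values measure only how these libraries differ among themselves, which may be technical variation. Every library had DHT, so the induction of these genes by androgen is taken from general knowledge and was not measured here.

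Androgens such as DHT switch on many genes in luminal prostate cells, in part through androgen response elements, short DNA motifs that often lie in enhancers far from the gene. The kallikrein KLK3, which encodes prostate-specific antigen, is the best known of these genes, but the response takes in genes of many other kinds. Those described here encode secreted and surface proteins, channels and receptors, signalling regulators, transcription factors and chromatin proteins, and enzymes of sugar, lipid, prostaglandin and methyl-group metabolism.

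The libraries held 19127357 to 21490953 counts. Levels are CPM, counts scaled to a common library size with trimmed mean of M-values (TMM) factors, and log2FC is the log2 ratio of the fitted level in DHT+WBM to that in DHT. A gene is said to have risen or fallen where edgeR's quasi-likelihood test gave a Benjamini-Hochberg adjusted p under 0.05 over all tested genes. The background was broad, with 58.2% of all tested genes called (29.0% lower, 29.2% higher) around a median log2FC of 0.0029. The luminal epithelial markers KRT8, KRT18, EPCAM, CDH1, FOXA1, HOXB13 and FOLH1 were present in every library. Of the 6 basal markers only ITGA6 passed the filter, and KRT5 was at 0 in all libraries. Of 10 stromal and immune markers 4 passed it, 1 fell (COL3A1) and 1 rose (CD68, a lysosomal protein gene used as a macrophage marker, log2FC 1.88), and the list summed to 96.2 to 105 CPM in DHT+WBM and 38.4 to 41.3 CPM in DHT. CD68 made up most of this sum, with a mean of 84.5 CPM in DHT+WBM and 23.0 CPM in DHT. Of the other genes, COL1A1 averaged 11.2 CPM in DHT+WBM and 10.5 CPM in DHT, and PDGFRB 1.66 CPM in DHT+WBM and 1.87 CPM in DHT. COL3A1 averaged under 5 CPM in both groups with a log2FC of -0.89. COL1A2 was at 0 in all libraries, and DCN, LUM, PTPRC, CD3E and PECAM1 averaged under 0.2 CPM in both groups. Whether the marker changes had any part in the results was not tested. KLK3 had 623, 615 and 611 CPM in the DHT+WBM libraries, against 1723, 1595 and 1728 CPM in the DHT libraries, a log2FC of -1.45, and serves as a yardstick. Gene positions are those of hg19.

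Of the 32 genes, 26 fell and 0 rose, while 6 missed the threshold. Their median log2FC was -0.39. The share of the 32 that fell, 81.2%, stands beside the 29.0% of all tested genes that fell. The 32 genes were chosen with earlier results of these data known, so this share is a description only. For the count of 0 higher, the unadjusted p was under 0.05 for 0 genes by edgeR, 0 by DESeq2 and 0 by limma-voom. In 25 of the 32 genes, all 3 DHT+WBM libraries lay below all 3 DHT libraries, against 31.1% of all tested genes, and in the other 7 the groups overlapped. Sizes ranged from a log2FC of -1.51 for CHRNA2 to 0.00 for ADAM7, so no gene matched the fall of KLK3 except CHRNA2. Falls of at least 2-fold were found in 4 genes (CHRNA2, EAF2, HPGD and ATAD2), against 2.44% of all tested genes. Falls of at least 1.5-fold were found in 9 genes, against 6.46% of all tested genes, and the other 17 genes that fell did so by less. Summed over the 32 genes, the libraries held 5267, 5247 and 5268 CPM in DHT+WBM, against 6869, 6851 and 7184 CPM in DHT. As these are bulk samples, fewer cells expressing a gene and less RNA per cell cannot be told apart.

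**Figure D1:**
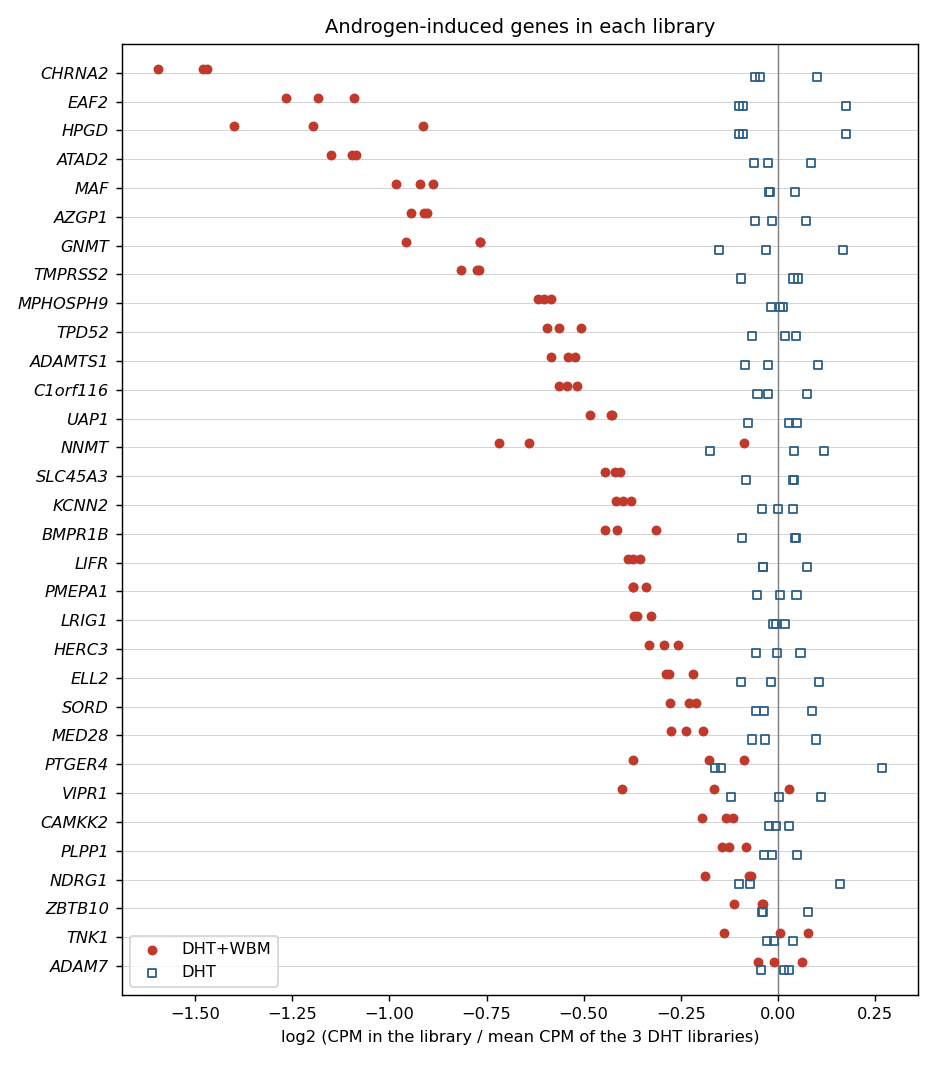
Each row is 1 gene, ordered by fold change, and each point is 1 library, plotted as the log2 ratio of its CPM to the mean CPM of the 3 DHT libraries (filled circles DHT+WBM, open squares DHT). The groups separate completely in 25 rows, and the last rows, NDRG1, ZBTB10, TNK1 and ADAM7, overlap.

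A larger list of 83 other androgen-induced genes showed a more mixed picture. It was written from general knowledge, but with earlier results of these data known, so its shares are also a description only. Of its 82 tested genes, 44 fell, 20 rose and 18 missed the threshold, around a median log2FC of -0.15, and 53.7% fell against 29.0% of all tested genes. Among its genes that fell were KLK3 and its neighbour KLK2, with a log2FC of -1.24 for KLK2. Among those that rose, INSIG1, a regulator gene of sterol synthesis, had a log2FC of 0.81 and SGK1, a kinase gene, of 0.72. FKBP5, a co-chaperone gene that androgens and glucocorticoids both induce, had a small rise, at 931, 906 and 907 CPM in the DHT+WBM libraries, against 777, 830.2 and 917 CPM in the DHT libraries. Its log2FC of 0.12 was 0.07 with DHT replicate 1 left out (edgeR adjusted p = 0.159) and 0.10 with DHT+WBM replicate 1 left out (edgeR adjusted p = 0.106), and was larger, at 0.19, without DHT replicate 3. Of 18 genes for the androgen receptor and its cofactors, 10 fell, 2 rose and 6 did not pass, beside 29.0% lower and 29.2% higher among all tested genes. Among the 10 that fell were HOXB13 (-0.50), GATA2 (-0.47) and HSP90AB1 (-0.45), and the 2 that rose were the coactivator genes NCOA1 (0.18) and NCOA3 (0.16). NCOA3 was 0.11 with DHT+WBM replicate 3 left out (edgeR adjusted p = 0.102).

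**Figure D2:**
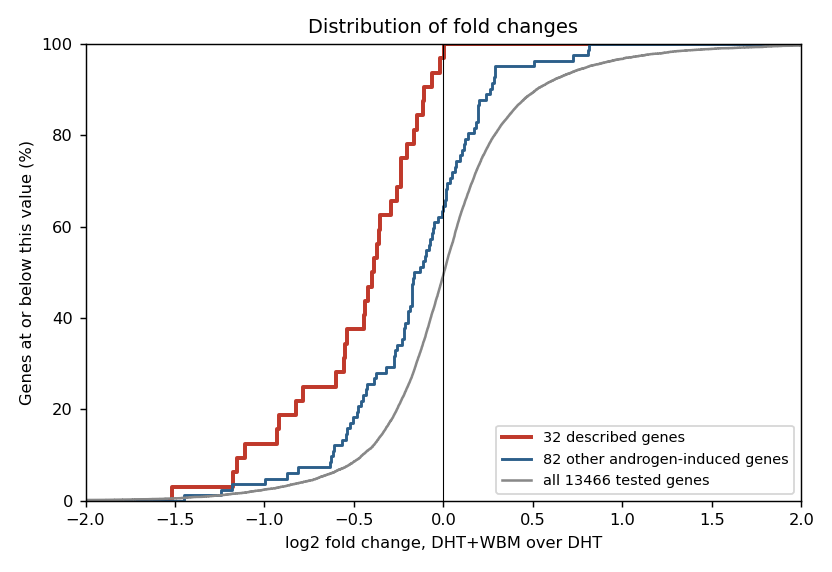
The curves give the percentage of genes at or below each log2FC (DHT+WBM over DHT) for the 32 described genes, the 82 other androgen-induced genes tested and all 13466 tested genes, of which 67 lie beyond the 2 ends of the axis. The curve of the described genes is almost wholly left of 0 and reaches its midpoint near -0.39, while that of all genes crosses its midpoint near 0.

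Promoter windows from RefSeq (GRCh38.p14), from 250 bases before to 50 bases after a gene start, were matched by symbol for 19 of the 32 genes, 34 windows in all because some genes have several starts. The motif AGAACA, 1 arm of the androgen response element, was read on both strands and was in 3 windows of 2 genes, LIFR and PMEPA1, and in 14.8% of all 35116 windows of the table. The CCAAT box, a common promoter element read on both strands, was in 19 of the 34 windows and in 34.6% of all windows. Those 19 windows came from 17 of the 19 genes, a count by gene for which no share over all genes was computed. A match is only a description of the letters in this window, and no match says nothing of binding elsewhere. Which starts were in use in these cells was not tested, and the windows were not matched to the deposited hg19 spans. The 3 windows with the AGAACA motif are shown first, with the motif in capitals, because they are where it occurs at these starts. They are followed by the windows of EAF2, the gene with the largest fall among those with a window, and AZGP1, a secreted protein gene that fell strongly, with the CCAAT box in capitals. All are written 5′ to 3′ on the strand of the gene.
LIFR promoter, chr5:38557418-38557717, minus strand: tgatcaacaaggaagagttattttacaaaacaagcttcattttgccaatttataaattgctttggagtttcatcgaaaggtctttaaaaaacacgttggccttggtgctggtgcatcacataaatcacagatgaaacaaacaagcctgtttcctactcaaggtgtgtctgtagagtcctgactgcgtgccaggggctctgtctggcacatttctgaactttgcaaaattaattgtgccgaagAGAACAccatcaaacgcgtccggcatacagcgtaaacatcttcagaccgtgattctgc
PMEPA1 promoter, chr20:57710528-57710827, minus strand: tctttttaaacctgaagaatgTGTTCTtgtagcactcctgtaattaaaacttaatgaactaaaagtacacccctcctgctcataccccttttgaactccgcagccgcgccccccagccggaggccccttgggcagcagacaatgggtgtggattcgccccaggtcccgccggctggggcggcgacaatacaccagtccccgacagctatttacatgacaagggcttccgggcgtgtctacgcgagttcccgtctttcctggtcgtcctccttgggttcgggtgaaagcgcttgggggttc
PMEPA1 promoter, chr20:57711423-57711722, minus strand: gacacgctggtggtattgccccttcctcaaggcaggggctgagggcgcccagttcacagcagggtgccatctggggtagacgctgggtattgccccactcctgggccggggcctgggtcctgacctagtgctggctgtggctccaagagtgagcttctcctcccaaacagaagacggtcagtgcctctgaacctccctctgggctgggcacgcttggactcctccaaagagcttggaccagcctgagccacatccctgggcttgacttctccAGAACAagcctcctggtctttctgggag
EAF2 promoter, chr3:121834959-121835258, plus strand: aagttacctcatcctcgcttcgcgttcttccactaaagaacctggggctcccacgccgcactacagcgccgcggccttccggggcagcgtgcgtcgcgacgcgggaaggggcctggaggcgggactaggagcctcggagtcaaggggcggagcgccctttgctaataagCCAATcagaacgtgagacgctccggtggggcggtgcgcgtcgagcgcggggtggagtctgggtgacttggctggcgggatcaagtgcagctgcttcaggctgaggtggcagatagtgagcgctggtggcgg
AZGP1 promoter, chr7:99975982-99976281, minus strand: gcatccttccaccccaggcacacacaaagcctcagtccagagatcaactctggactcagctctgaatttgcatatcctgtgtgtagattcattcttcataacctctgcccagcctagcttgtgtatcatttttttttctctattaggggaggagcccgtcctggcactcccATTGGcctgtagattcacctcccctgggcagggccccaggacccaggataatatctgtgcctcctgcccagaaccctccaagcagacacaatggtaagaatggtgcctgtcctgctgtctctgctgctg

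Of the genes for secreted and surface proteins, 3 of 4 fell. TMPRSS2 (chromosome 21, 42836478 to 42903043, minus strand), a membrane-bound serine protease gene whose androgen-driven promoter is joined to ETS genes in many prostate cancers, had 105, 109 and 108 CPM in the DHT+WBM libraries, against 192, 173 and 190.4 CPM in the DHT libraries. The extract libraries lay within a few CPM of each other and far below the lowest DHT library, a 1.72-fold fall (log2FC -0.79 ± 0.04, edgeR adjusted p = 1.38e-18). AZGP1 (chromosome 7, 99564350 to 99573735, minus strand), which encodes zinc-alpha-2-glycoprotein, a secreted protein of seminal fluid, had 146, 142 and 145 CPM in the DHT+WBM libraries, against 270.3, 262 and 287 CPM in the DHT libraries. The groups were separate and the log2FC was -0.92 ± 0.04 (edgeR adjusted p = 1.68e-21). A pseudogene copy, AZGP1P1, lies beside it and averaged under 3 CPM in both groups, and how the counting split reads between the copies was not tested. ADAMTS1 (chromosome 21, 28208606 to 28217728, minus strand), a secreted metalloprotease gene that acts on proteoglycans, had 357, 372 and 368 CPM in the DHT+WBM libraries, against 574, 504 and 525 CPM in the DHT libraries. DHT replicate 1 was the highest library, and the log2FC was -0.55. ADAM7 (chromosome 8, 24298509 to 24384483, plus strand), a membrane protein gene of the same metalloprotease superfamily best known from the epididymis, was the exception, with 41.5, 40.3 and 43.6 CPM with the extract and 42.6, 40.6 and 42.2 CPM without it. Its groups overlapped fully, and the 95% interval of its log2FC was -0.11 to 0.11, which does not contain the values of the other 3. Of the other listed type II transmembrane serine protease genes, 4 were tested, 3 rose and 0 fell, beside 29.2% higher and 29.0% lower among all tested genes. The genes that rose were TMPRSS13 with a log2FC of 0.75, HPN, the hepsin gene, with 0.40, and ST14, the matriptase gene, with 0.22. TMPRSS4 did not pass, at 0.860 CPM in DHT+WBM and 1.01 CPM in DHT. All 3 of its DHT+WBM libraries lay below all 3 DHT libraries. Its log2FC of -0.23 had a 95% interval of -0.77 to 0.31, so a fall as large as that of ADAMTS1 is not left out. TMPRSS2 was the only 1 of the 5 tested proteases on this list with a called fall.

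**Figure D3:**
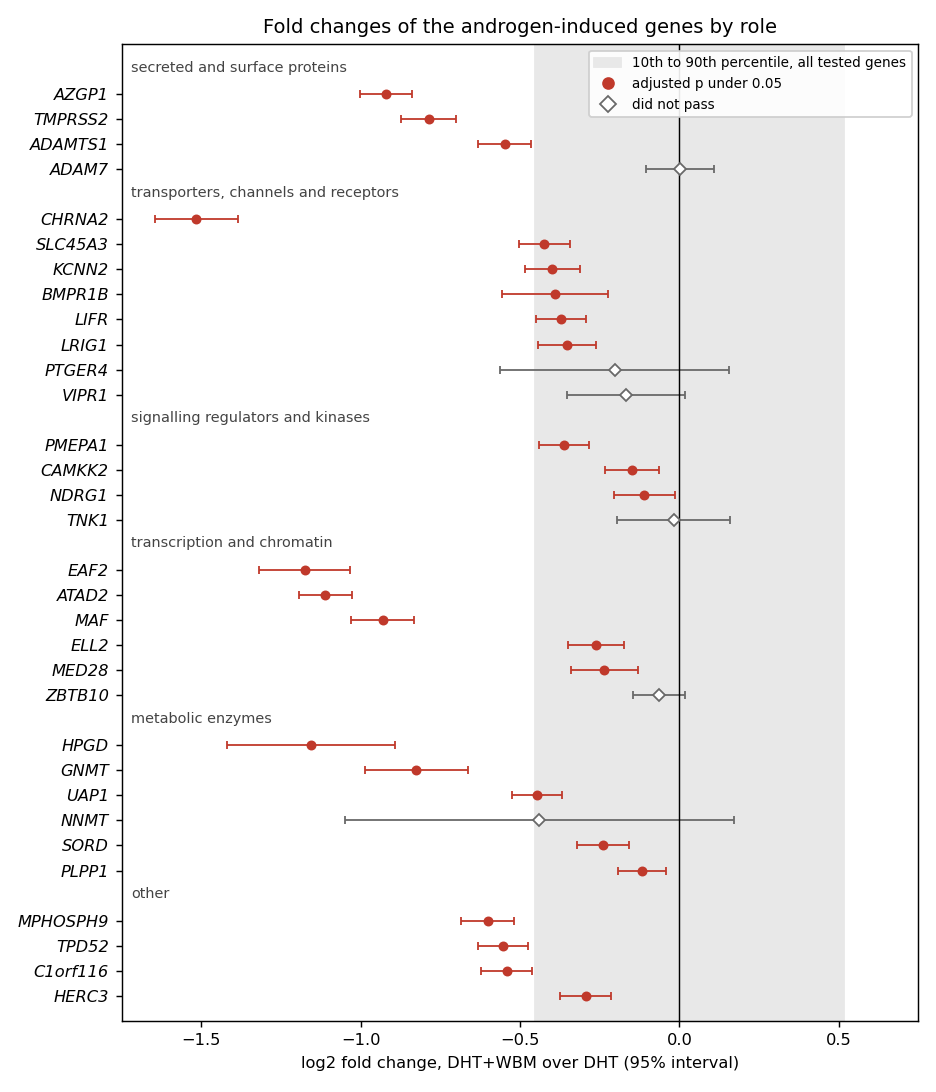
Points are log2FC values of DHT+WBM over DHT with 95% intervals, grouped by the role of the gene, with filled circles for genes with an adjusted p under 0.05, open diamonds for the others and a grey band from the 10th to the 90th percentile of all tested genes (-0.45 to 0.52). The intervals of NNMT, PTGER4 and HPGD are the widest, and CHRNA2, EAF2, HPGD, ATAD2, MAF and AZGP1 lie far to the left of the band.

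Among transporters, channels and receptors, 6 of 8 fell. CHRNA2 (chromosome 8, 27317278 to 27336813, minus strand), a nicotinic acetylcholine receptor subunit gene, showed the largest fall of the 32, at 16.5, 16.6 and 15.2 CPM in the DHT+WBM libraries, against 44.4, 44.0 and 49.2 CPM in the DHT libraries. Its lowest DHT library was more than 2-fold above its highest DHT+WBM library, and the fall was 2.86-fold (log2FC -1.51 ± 0.06, edgeR adjusted p = 6.83e-22). The other 5 that fell formed a narrow band, with log2FC values from -0.42 to -0.35 and overlapping 95% intervals. SLC45A3 (chromosome 1, 205592804 to 205649630, minus strand), the gene of prostein, a membrane transporter restricted largely to prostate epithelium, had 300.3, 293 and 298 CPM in the DHT+WBM libraries, against 410.0, 376 and 409 CPM in the DHT libraries. Its annotated span overlaps ELK4 on the same strand, a gene with which it forms a known read-through RNA in prostate cells. ELK4 averaged 209 ± 5.52 CPM in DHT+WBM and 211 ± 9.47 CPM in DHT (SD, n = 3 each), a log2FC of -0.01 that did not pass. KCNN2 (chromosome 5, 113698016 to 113832197, plus strand), a calcium-activated potassium channel gene, had 78.3, 76.2 and 77.3 CPM in the DHT+WBM libraries, against 105, 99.0 and 102 CPM in the DHT libraries, and its groups did not overlap.

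LIFR (chromosome 5, 38475065 to 38595507, minus strand), the receptor gene for leukemia inhibitory factor, had 251, 249 and 255 CPM in the DHT+WBM libraries, against 317, 317 and 343 CPM in the DHT libraries (log2FC -0.37 ± 0.04, edgeR adjusted p = 2.06e-10). Of the 9 other tested genes of the LIF receptor and gp130 pathway, 5 rose and 1 fell, with a median of 0.17, beside 29.2% higher and 29.0% lower among all tested genes. IL6ST, which encodes the shared signalling chain gp130, had a log2FC of 0.17, IL6R of 0.28 and CNTFR, at under 2 CPM, of 1.48. JAK1 was the 1 that fell, at -0.49 and under 4 CPM, and its log2FC was -0.21 with DHT replicate 1 left out (edgeR adjusted p = 0.404), -0.50 with DHT+WBM replicate 1 left out (edgeR adjusted p = 0.059) and -0.48 with DHT+WBM replicate 3 left out (edgeR adjusted p = 0.0601). The JAK1 call was also lost by DESeq2 (adjusted p = 0.114) and by limma-voom (adjusted p = 0.0578). BMPR1B (chromosome 4, 95679128 to 96079601, plus strand), a type I receptor gene for bone morphogenetic proteins, was rarer, at 11.0, 11.8 and 10.8 CPM in the DHT+WBM libraries, against 13.7, 15.1 and 15.1 CPM in the DHT libraries. Of the 15 other tested BMP receptor and SMAD genes, 7 fell, 2 rose and 6 did not pass, around a median of -0.18, beside 29.0% lower and 29.2% higher among all tested genes. Those with the smallest adjusted p were the signal transducer gene SMAD9 (-0.64) and the type II receptor gene BMPR2 (-0.40), which fell, and ACVR1B (0.24), which rose, as did ID2 (0.17). ID2 was 0.13 with DHT replicate 1 left out (edgeR adjusted p = 0.0621).

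LRIG1 (chromosome 3, 66429221 to 66550845, minus strand), a transmembrane protein gene that restrains ERBB receptors, had 60.8, 62.3 and 60.4 CPM in the DHT+WBM libraries, against 79.1, 77.5 and 77.8 CPM in the DHT libraries, and the groups were far apart for so small a spread. Among its relatives and the ERBB receptors, LRIG3 fell with a log2FC of -0.42 and ERBB3 with -0.25, while ERBB2 rose with 0.15 and EGFR with 0.12. The EGFR value was 0.10 with DHT+WBM replicate 2 left out (edgeR adjusted p = 0.125), 0.10 with DHT+WBM replicate 3 left out (edgeR adjusted p = 0.11) and 0.06 with DHT replicate 3 left out (edgeR adjusted p = 0.258), and its call was lost by DESeq2 (adjusted p = 0.0656). PTGER4, the EP4 prostaglandin receptor gene, and VIPR1, a receptor gene for vasoactive intestinal peptide, did not pass. PTGER4 rested on 39 to 53 counts per DHT+WBM library and 46 to 64 per DHT library, and averaged 2.24 ± 0.222 CPM in DHT+WBM and 2.59 ± 0.458 CPM in DHT (SD, n = 3 each). Its 95% interval of -0.56 to 0.16 holds both no change and the log2FC of SLC45A3. VIPR1 had 10.3, 12.1 and 13.9 CPM with the extract and 14.7, 12.5 and 13.6 CPM without it. DHT+WBM replicate 3 lay among the DHT libraries and the other 2 below them, and the log2FC of -0.17 (edgeR adjusted p = 0.117) was -0.29 with DHT+WBM replicate 3 left out (edgeR adjusted p = 0.0136).

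Signalling regulators and kinases moved least, with a median log2FC of -0.13, although 3 of 4 fell. PMEPA1 (chromosome 20, 56223448 to 56286592, minus strand), whose membrane protein binds NEDD4-type ubiquitin ligases and restrains TGF-beta signalling, had 221, 215 and 215 CPM in the DHT+WBM libraries, against 280.3, 269 and 288 CPM in the DHT libraries, a log2FC of -0.36 ± 0.04 (edgeR adjusted p = 2.46e-10). CAMKK2 (chromosome 12, 121675495 to 121736111, minus strand), a calcium-dependent kinase gene upstream of AMPK, averaged 105 ± 2.99 CPM in DHT+WBM and 117 ± 2.14 CPM in DHT (SD, n = 3 each). Its groups were separate but close, with a log2FC of -0.15 (edgeR adjusted p = 0.00258). Its paralog CAMKK1 was scarcer and fell further, with 6.30 CPM in DHT+WBM and 11.5 CPM in DHT, a log2FC of -0.88. Among the 12 other tested genes of the CAMKK2 and AMPK list, 5 rose and 2 fell. Among all tested genes, 29.2% rose and 29.0% fell. On the list, the AMPK subunit gene PRKAB2 (0.33) rose and the calmodulin gene CALM3 (-0.11) fell. CALM3 was -0.10 with DHT+WBM replicate 3 left out (edgeR adjusted p = 0.0568) and -0.09 with DHT replicate 3 left out (edgeR adjusted p = 0.0533), and -0.06 with library totals as the only scaling (edgeR adjusted p = 0.145).

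NDRG1 (chromosome 8, 134249414 to 134309547, minus strand), a gene induced by stress and hypoxia as well as by androgen, passed the test by a narrow margin, with a log2FC of -0.11 ± 0.05 (edgeR adjusted p = 0.045). It had 303, 305 and 280.4 CPM in the DHT+WBM libraries, against 304, 298 and 357 CPM in the DHT libraries. DHT replicate 3 stood above the other 5 libraries, which ran together, and the log2FC was -0.02 with DHT replicate 3 left out (edgeR adjusted p = 0.637) and -0.08 with DHT+WBM replicate 3 left out (edgeR adjusted p = 0.193). The call was also lost with library totals as the only scaling, by DESeq2 and by limma-voom. The other 3 genes of the NDRG family all rose, against 29.2% of all tested genes. NDRG4 had a log2FC of 2.10 from 0.832 CPM in DHT, NDRG2 of 0.25 and NDRG3 of 0.20. TNK1, a non-receptor tyrosine kinase gene, did not pass, with 9.99, 11.6 and 11.0 CPM with the extract and 10.8, 10.9 and 11.3 CPM without it and a 95% interval of -0.19 to 0.16. The sign of its log2FC depended on scaling, at -0.02 with TMM factors and 0.03 with library totals only.

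Of the transcription and chromatin genes, 5 of 6 fell. EAF2 (chromosome 3, 121554034 to 121605373, plus strand), which encodes a partner of the ELL elongation factors and is also known as an androgen-induced growth regulator of the prostate, had 17.8, 16.8 and 19.0 CPM in the DHT+WBM libraries, against 37.7, 37.9 and 45.5 CPM in the DHT libraries. DHT replicate 3 was the highest library, the groups were separate, and the fall was 2.26-fold (log2FC -1.18 ± 0.07, edgeR adjusted p = 2.78e-17). Its paralog EAF1 had 125, 123 and 121 CPM in DHT+WBM and 120.3, 126 and 123 CPM in DHT, and the groups overlapped. ELL2 (chromosome 5, 95220802 to 95297775, minus strand), an elongation factor gene of the super elongation complex, had 162, 155 and 156 CPM in the DHT+WBM libraries, against 177, 187 and 203 CPM in the DHT libraries, a smaller fall of log2 -0.26 ± 0.04 (edgeR adjusted p = 2.67e-06). Across the 11 other tested genes of that complex and its ELL partners, 4 fell and 4 rose, around a median of -0.002. The shares of all tested genes were 29.0% lower and 29.2% higher. The scaffold gene AFF3 fell with -0.52, while its relatives AFF4 and AFF1 and the reader gene MLLT3 rose with 0.26, 0.24 and 0.40. ELL3 had a log2FC of 0.16, and its call was lost whichever library was left out, with edgeR adjusted p from 0.0502 to 0.163.

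ATAD2 (chromosome 8, 124332091 to 124428590, minus strand), which encodes a bromodomain ATPase and coactivator for E2F and MYC, had 151, 145 and 152 CPM in the DHT+WBM libraries, against 317, 342 and 309 CPM in the DHT libraries. This was the most abundant of the 4 genes that fell at least 2-fold in CPM, with a log2FC of -1.11 ± 0.04 (edgeR adjusted p = 7.81e-24). DNA replication genes, a set of E2F targets, were also described, from a list chosen with earlier results of these data known. All 16 fell (median log2FC -0.87), against 29.0% of all tested genes, with a summed level of 1128 to 1161 CPM in DHT+WBM and 2150 to 2259 CPM in DHT. The helicase genes MCM2 (-1.18) and MCM4 (-1.09) and the helicase loader gene CDC6 (-1.27) had the smallest adjusted p. The part of cell division in the fall of ATAD2 was not tested.

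MAF (chromosome 16, 79627745 to 79634622, minus strand), a leucine zipper transcription factor gene, had 39.9, 39.0 and 37.4 CPM in the DHT+WBM libraries, against 72.7, 72.9 and 76.1 CPM in the DHT libraries. The groups were widely separate, with a log2FC of -0.93 ± 0.05 (edgeR adjusted p = 7.71e-19). MED28 (chromosome 4, 17616273 to 17629793, plus strand), a Mediator subunit gene, had 46.8, 45.3 and 44.1 CPM in the DHT+WBM libraries, against 52.2, 57.2 and 51.0 CPM in the DHT libraries, a log2FC of -0.24. Of 31 other Mediator subunit genes, 10 fell (32.3%, near the 29.0% of all tested genes), 3 rose and 18 did not pass (median -0.07). Among them MED30 and MED8 fell with -0.50 and -0.28, and MED13, MED7 and MED20 rose with 0.18, 0.23 and 0.21. ZBTB10, a zinc finger gene, had 306, 322 and 321 CPM with the extract and 321, 349 and 321 CPM without it. Its groups overlapped, and the 95% interval of -0.14 to 0.02 leaves out a fall as large as that of MED28.

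**Figure D4:**
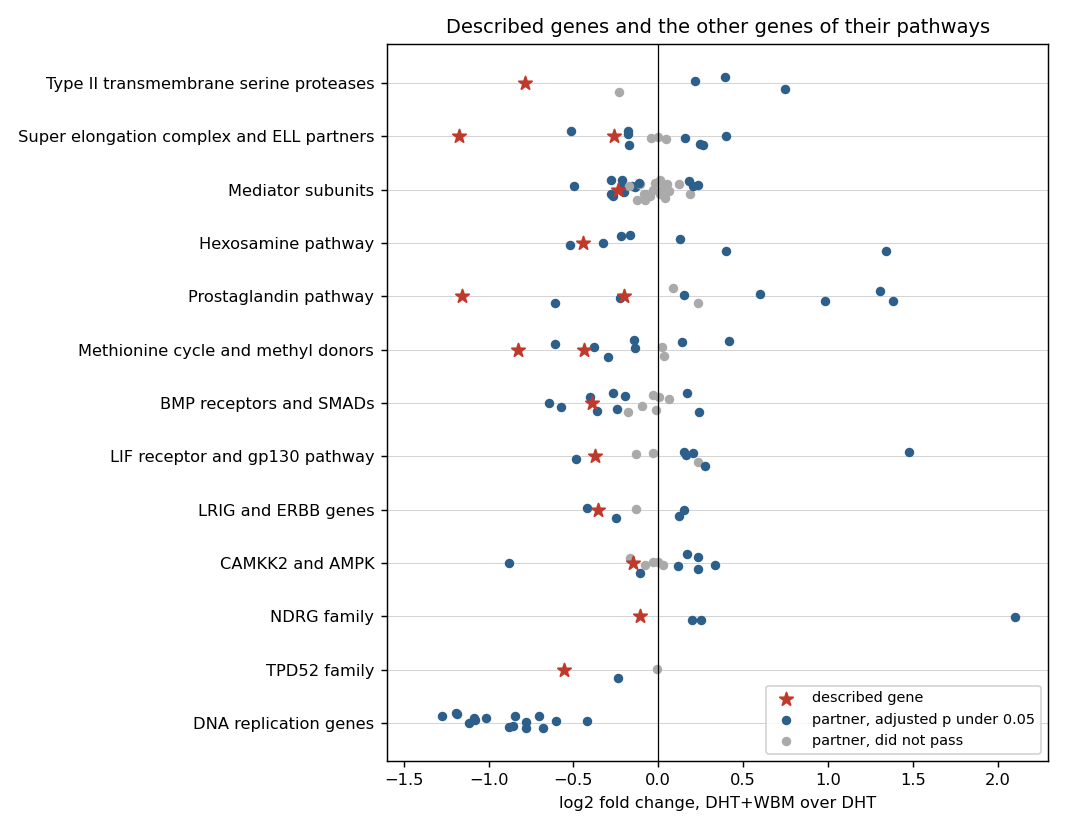
Stars are the described genes and dots the other tested genes of each list, plotted by log2FC of DHT+WBM over DHT, with blue dots for an adjusted p under 0.05 and grey for the others. The stars lie at or left of most dots in the protease, prostaglandin and NDRG lists, and all 16 DNA replication genes lie left of 0.

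Of the metabolic enzyme genes, 5 of 6 fell, and their sizes differed widely. HPGD (chromosome 4, 175411328 to 175444049, minus strand), which encodes the enzyme that inactivates prostaglandins, averaged 3.38 ± 0.576 CPM in DHT+WBM and 7.53 ± 0.844 CPM in DHT (SD, n = 3 each). The groups were separate at a low level of 62 to 82 counts per DHT+WBM library and 145 to 169 per DHT library, and the log2FC was -1.16 ± 0.13 (edgeR adjusted p = 9.83e-10). The 9 other tested prostaglandin genes had a median of 0.24, with 5 higher and 2 lower. The shares of all tested genes were 29.2% higher and 29.0% lower. PTGR1, a reductase gene that also breaks down prostaglandins, rose with 1.31, and the cyclooxygenase gene PTGS1 rose with 0.98 from 2.08 CPM in DHT. The inducible cyclooxygenase gene PTGS2 had 3.73 CPM in DHT+WBM and 3.51 CPM in DHT and did not pass. The exporter gene ABCC4 fell with -0.61 and the synthase and co-chaperone gene PTGES3 with -0.22.

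GNMT (chromosome 6, 42928500 to 42931618, plus strand), whose enzyme methylates glycine and so consumes the methyl donor S-adenosylmethionine, had 14.2, 12.4 and 14.2 CPM in the DHT+WBM libraries, against 23.6, 21.7 and 27.1 CPM in the DHT libraries, a log2FC of -0.82 ± 0.08 (edgeR adjusted p = 1.91e-11). PEX6 overlaps it on the other strand and rose with 0.27, and reads of the overlap cannot be assigned if counting ignored strand. Of the 9 other tested genes of the methionine cycle, 5 fell and 2 rose, beside 29.0% lower and 29.2% higher among all tested genes. MAT2A, which makes S-adenosylmethionine outside the liver, fell with -0.61, MTAP with -0.38 and the methionine synthase gene MTR with -0.30, while the liver-type MAT1A rose with 0.42 and AHCYL1 with 0.14. NNMT, which methylates nicotinamide, was close to the detection limit, with 11, 11 and 18 counts in DHT+WBM and 19, 19 and 16 in DHT. Its log2FC of -0.44 had a 95% interval of -1.05 to 0.17, which spans no change and a 2-fold fall, and it was -0.68 without DHT+WBM replicate 3, the library with 18 counts.

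UAP1 (chromosome 1, 162531296 to 162569633, plus strand), the last enzyme of the hexosamine pathway, which makes UDP-N-acetylglucosamine for protein glycosylation, had 353, 340.2 and 353 CPM in the DHT+WBM libraries, against 451, 485 and 491 CPM in the DHT libraries. Its log2FC of -0.45 ± 0.04 (edgeR adjusted p = 1.92e-12) stood beside 4 lower and 3 higher of the 7 other genes of the list. Among all tested genes, 29.0% fell and 29.2% rose. PGM3, an enzyme of the same route, fell with -0.52. The genes that rose were OGT, which transfers the sugar to proteins, at 0.40, MGEA5, which removes it, at 0.13, and the scarce GFPT2 at 1.34. SORD (chromosome 15, 45315302 to 45367287, plus strand), which oxidises sorbitol to fructose, had 477, 456 and 471 CPM in the DHT+WBM libraries, against 532, 539 and 588 CPM in the DHT libraries, a log2FC of -0.24 ± 0.04 (edgeR adjusted p = 2.94e-06). The only other tested polyol gene, KHK, had 5.78 CPM in DHT+WBM and 5.92 CPM in DHT and did not pass. PLPP1 (chromosome 5, 54720670 to 54830906, minus strand), a membrane lipid phosphatase gene, had 679, 687 and 709 CPM in the DHT+WBM libraries, against 742, 732 and 776 CPM in the DHT libraries. Its groups did not overlap, but its log2FC was only -0.12 (edgeR adjusted p = 0.00805) and became -0.07 with library totals as the only scaling (edgeR adjusted p = 0.0979).

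All 4 remaining genes fell, by intermediate amounts. MPHOSPH9 (chromosome 12, 123640946 to 123717658, minus strand), a centrosome and cilium protein gene, had 84.3, 83.3 and 82.4 CPM in the DHT+WBM libraries, against 125, 127 and 127 CPM in the DHT libraries, a log2FC of -0.60 ± 0.04 (edgeR adjusted p = 1.99e-15). TPD52 (chromosome 8, 80831095 to 81083836, minus strand), a coiled-coil protein gene of vesicle and lipid droplet traffic that is often amplified in prostate cancer, had 407, 423 and 399 CPM in the DHT+WBM libraries, against 574, 609 and 621 CPM in the DHT libraries, a log2FC of -0.55 ± 0.04. Its relative TPD52L1 fell with a log2FC of -0.24, and TPD52L2 had 107 CPM in DHT+WBM and 108 CPM in DHT without passing. C1orf116 (chromosome 1, 207191866 to 207206101, minus strand), also called specifically androgen-regulated gene, had 292, 287 and 283 CPM in the DHT+WBM libraries, against 411, 403 and 441 CPM in the DHT libraries, a log2FC of -0.54 ± 0.04 (edgeR adjusted p = 8.49e-15). HERC3 (chromosome 4, 89513574 to 89629693, plus strand), a ubiquitin ligase gene, had 211, 206 and 217 CPM in the DHT+WBM libraries, against 249, 258 and 269.5 CPM in the DHT libraries, a log2FC of -0.29 ± 0.04. For all 4 genes the groups were separate. The annotated span of TPD52 overlaps MRPS28 on the same strand, and how reads in such overlaps were counted is not given in the sources used here.

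Per kilobase of gene length, PLPP1 was the most abundant of the 32 in both groups, at 381 RPKM (CPM per kilobase of the deposited gene length) in DHT+WBM and 413 RPKM in DHT. AZGP1 ranked 4 in DHT+WBM and 2 in DHT, with 115 and 217 RPKM, and ATAD2 ranked 18 and 12. NNMT was the rarest, at 0.376 RPKM in DHT+WBM and 0.516 RPKM in DHT. Across the 32 genes, log2FC and log2 RPKM in DHT had a Pearson r of -0.01 and a Spearman rho of -0.07, given as a description over genes that share the same libraries. Over all 13466 tested genes, r was -0.24 and rho was -0.21. The spread between libraries was smaller with the extract, with a median coefficient of variation of 2.75% in DHT+WBM and 4.82% in DHT. A smaller spread was also seen over all tested genes. Their chi-square per degree of freedom between replicates was 1.73 to 2.02 in DHT+WBM and 3.74 to 4.29 in DHT. DHT replicate 3 was the highest DHT library for 17 of the 32 genes, and the count of 26 lower became 25 without it.

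**Figure D5:**
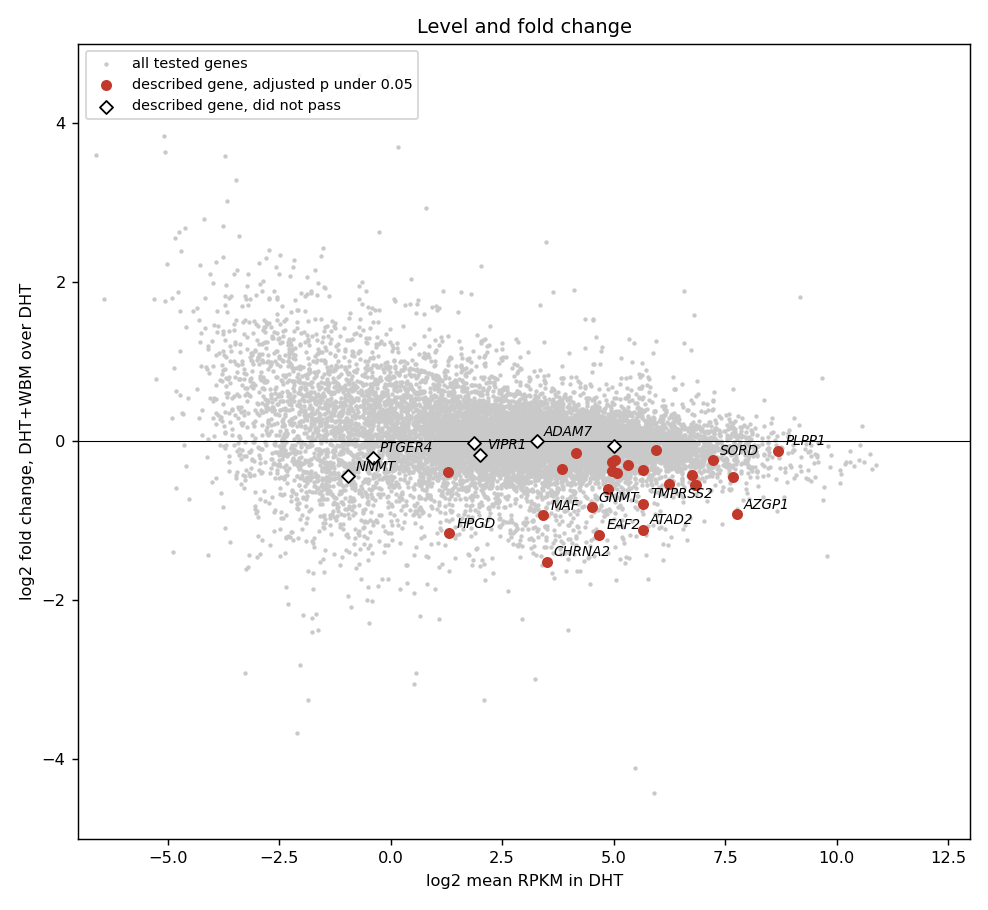
Each point is a gene, with log2 mean RPKM in DHT on the x axis and log2FC of DHT+WBM over DHT on the y axis (grey for all tested genes, red circles for described genes with an adjusted p under 0.05, open diamonds for the other described genes). The genes that fell most, from CHRNA2 to TMPRSS2, lie at low, middle and high levels.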

How the data were processed

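RNA of 6 LNCaP libraries was sequenced. Whole-number read counts were deposited by the authors for each gene, not normalized, together with the position and length of the gene. Per the submitters' processing notes, edgeR 3.28.1, HTSeq 0.6.0, STAR 2.6.0 and bcl2fastq 2.18.0.12 were named with hg19, in no stated role. Annotation, strand setting and filters: not given in the sources used here. Groups and columns were matched by the codes in the sample titles. Gene coordinates are the deposited ones. No 2 libraries of a group agreed within sampling noise. Chi-square per degree of freedom over genes was 1.73 to 2.02 in DHT+WBM and 3.74 to 4.29 in DHT.

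Counts were fitted with edgeR 4.0.16 in R 4.3.3. Genes passed filterByExpr (minimum count 10, minimum total 15), which left 13466 of 23354. TMM factors were 0.979 to 1.02, and the quasi-likelihood F-test had no covariate and was two-sided. SEs and 95% intervals of log2FC values were derived from the F statistic. Levels are CPM, and RPKM uses the deposited length. The fit was tested on simulated data. Alternatives were RLE factors, library totals only, no filter, at least 1 CPM in 3 libraries, DESeq2 1.42.0, limma-voom (limma 3.58.1), a stricter adjusted p of 0.01, a replicate block and each library left out.

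The members and gene lists were chosen with earlier results of these data known. Named genes were all 32 members, up to 3 genes of smallest adjusted p of each other list, genes against a list's direction where 5 or fewer, and KLK3. FKBP5, INSIG1, SGK1, EAF1, ELK4, PTGS2 and the neighbouring or overlapping genes were chosen after their values were seen. Not every gene picked by these rules is reported here.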

Additional observations from a re-analysis of the deposited data

How the results depend on the processing

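The count of androgen-induced genes that fell was 24 to 26 of 32 over the 14 alternatives, and 0 rose in any. With the replicate number as a block it was 26, with 45 lower and 21 higher among the other androgen-induced genes. Deviations of same-numbered libraries correlated at 0.0498, 0.0374 and 0.0192. DHT+WBM replicates 1 and 2 correlated best with the DHT library of the same number, and DHT+WBM replicate 3 with DHT replicate 2 (0.0465). Correlations this small cannot decide whether the numbers pair the libraries. The other androgen-induced genes gave 39 to 45 lower and 17 to 24 higher. All tested genes gave 3190 to 4128 lower and 3155 to 4675 higher, and no scaling moved their median by more than 0.05. Of the 32 genes, 27 kept direction and side of the threshold under every alternative that tested them. The exceptions were NDRG1, PLPP1, VIPR1, TNK1 and ADAM7, and NNMT was not tested at 1 CPM. NDRG1 lost its call under library totals (-0.06), DESeq2 (-0.11), limma-voom (-0.11) and an adjusted p under 0.01. Changes of sign occurred only in genes that did not pass. ADAM7 took -0.0097 without a filter and -0.0015 at 1 CPM. With library totals only, TNK1 took 0.029, EAF1 0.044, ELK4 0.037, KHK 0.010 and TPD52L2 0.039. With each library left out in turn, ADAM7 ran from -0.038 to 0.021, TNK1 ran from -0.070 to 0.033, EAF1 ran from -0.022 to 0.013, ELK4 ran from -0.046 to 0.016, KHK ran from -0.11 to 0.065, TPD52L2 ran from -0.023 to 0.0012. The cause was not tested. NNMT and PTGER4, the genes with the fewest counts, had the widest intervals.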

Other observations

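The nearest tested genes on each side of the androgen-induced genes were also described. Of 62 such neighbours that are not among the 32, 26 fell, 11 rose and 25 did not pass, with a median log2FC of -0.11, against 29.0% lower and 29.2% higher among all tested genes. Beside EAF2, the peptide transporter gene SLC15A2 lies 7.80 kb further along and had 21.1 CPM in DHT+WBM and 57.2 CPM in DHT (log2FC -1.44, edgeR adjusted p = 8.55e-23), a larger fall than that of EAF2. On its other side IQCB1, a ciliary protein gene, had 47.7 CPM in DHT+WBM and 56.4 CPM in DHT (log2FC -0.24, edgeR adjusted p = 7.97e-05). PTK2B, a tyrosine kinase gene on the plus strand, ends 0.4 kb from where CHRNA2 ends on the minus strand. PTK2B is itself in the list of other androgen-induced genes. Its levels were 58.7 CPM in DHT+WBM and 81.7 CPM in DHT (log2FC -0.48, edgeR adjusted p = 8.77e-11). Beside HERC3, the antisense RNA FAM13A-AS1 had 0.588 CPM in DHT+WBM and 1.36 CPM in DHT (log2FC -1.22, edgeR adjusted p = 0.00055). Beside NDRG1, the sialyltransferase gene ST3GAL1 had 1381 CPM in DHT+WBM and 817 CPM in DHT (log2FC 0.76, edgeR adjusted p = 1.76e-19), so the neighbour rose where NDRG1 hardly moved. SLC25A26, which carries S-adenosylmethionine into mitochondria and overlaps LRIG1 on the other strand, had a log2FC of 0.25 (edgeR adjusted p = 0.00424). These neighbours were chosen after their values were seen.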
